A study of Mus musculus with 4 samples.

Results

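Gfap, Vim, Nes and Synm encode intermediate filament proteins that glia share, and their transcripts were followed here across cell classes of the mouse spinal cord with and without injury. The genes were taken by name from the gene features of both matrices, and all 4 were found among 32287 gene features. The study screened a viral library of enhancers in young adult Cx30-tdTomato mice, in which a tamoxifen-inducible Cre under Cx30 switches on tdTomato from the R26R locus, mainly in astrocytes. Both groups carried this reporter and received the AAV library intravenously. The Injured group had a spinal cord contusion and was sampled at 3 days after injury, in a segment of 5 mm around the epicenter. The Uninjured group was sampled at the same level of the cord. Cells were sorted for tdTomato before single-cell RNA sequencing (10x Genomics, 3' ends with unique molecular identifiers, UMIs). By the labels each group pooled 1 to 2 animals per sex, although almost no uninjured cell scored female, as described below. Each group gave 1 gene expression library, so no difference between the groups has a replicate check and no p-value was computed.

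Intermediate filaments are rope-like polymers that give cells mechanical strength. GFAP is the main filament protein of astrocytes and its rise is the classical sign of a reactive astrocyte. Vimentin is the filament protein of mesenchymal and endothelial cells and of immature and reactive glia, nestin is known from neural stem cells, and synemin is a large partner that copolymerizes with vimentin, desmin or GFAP and cannot form filaments by itself. Reactive astrocytes are known to build mixed filaments from all of these proteins.

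After filtering, the injured library held 879 cells with a median of 6816 gene UMIs and the uninjured library 4159 cells with a median of 3343. Cells fell into 11 clusters, found with the intermediate filament genes left out so that they could not choose the classes. Marker genes placed the clusters in 6 classes, with 443 injured and 3956 uninjured astrocyte-like cells, 135 and 31 ependymal-like, 68 and 26 endothelial-like, 59 and 98 fibroblast-like, 45 and 16 oligodendrocyte progenitor (OPC)-like, and 129 and 32 microglia-like cells. The uninjured OPC-like cells were too few to be used. All 12 astrocyte markers were found in astrocyte-like cells, with a summed level of 13036 and 16216 UMIs per 1000000 gene UMIs (counts per 1000000, CPM) in the injured and uninjured library. The fibroblast-like class also held markers of mural cells, at a summed 2735 and 1927 CPM. Among astrocyte-like cells the sorting reporter tdTomato-WPRE reached 2156 CPM after injury and 414 CPM without it, and it was lowest in microglia-like cells, at 32.8 and 0 CPM. The labels give both sexes in each group, but by Xist and 4 Y-linked genes 250 injured cells scored female and 315 male, while in the uninjured library 2 scored female and 2770 male. Results are therefore also given for male-scored cells. The libraries had 7 cell barcodes in common.

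By its identifier in GENCODE M21, Gfap (ENSMUSG00000020932) lies on the minus strand of chromosome 11 from 102887336 to 102900912 (GRCm38). Vim (ENSMUSG00000026728) lies on the plus strand of chromosome 2 from 13573927 to 13582826, Nes (ENSMUSG00000004891) on the plus strand of chromosome 3 from 87971078 to 87980451, and Synm (ENSMUSG00000030554) on the minus strand of chromosome 7 from 67730160 to 67759742. The 250 bases before the RefSeq start of Gfap and Synm are shown because these genes had the most different distributions over cell classes, as described further on. They were searched on both strands for letters bound by factors known from reactive glia. The windows are chr11:102897201-102897450 and chr7:67759743-67759992 (GRCm38.p6, minus strand), printed 5′ to 3′ with any match in capitals.
Gfap: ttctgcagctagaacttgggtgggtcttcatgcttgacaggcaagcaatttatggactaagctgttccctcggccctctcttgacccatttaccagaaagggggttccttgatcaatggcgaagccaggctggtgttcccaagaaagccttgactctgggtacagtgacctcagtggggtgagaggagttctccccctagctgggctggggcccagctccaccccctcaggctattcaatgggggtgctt
Synm: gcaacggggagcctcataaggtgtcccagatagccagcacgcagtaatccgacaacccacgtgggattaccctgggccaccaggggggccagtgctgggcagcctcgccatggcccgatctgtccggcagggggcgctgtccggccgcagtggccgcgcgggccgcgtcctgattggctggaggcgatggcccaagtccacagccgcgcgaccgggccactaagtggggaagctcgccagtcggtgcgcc
Neither window held TGANTCA (the AP-1 motif, in 6.75% of 32851 promoter windows of this length), TTCNNNGAA (STAT, 7.02%), the palindromic NFI site (TGGC, any 5 bases, GCCA, in 0.703%), ACAATG (SOX, 10.7%) or TATAAA (the TATA box, 12.4%), so they have no capitals. Of the 4 genes, a match was found for Vim alone, with TATAAA beginning 32 bases before the start. G or C made up 55.6% of the Gfap window and 70% of the Synm window. An absent match says only that these letters were not in the window.

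Gfap was by far highest in injured astrocyte-like cells, at 2671 CPM (6176 UMIs, 95% interval 2605 to 2739). Intervals here are exact and cover counting error only, not animals or libraries. Injured ependymal-like cells followed with 788 CPM (746 to 831) and OPC-like cells with 201 CPM (175 to 230). The 3 classes at the end of the order were alike in level. Fibroblast-like cells had 22.2 CPM, microglia-like cells 21.1 CPM and endothelial-like cells 10.7 CPM, and the intervals of the ratios between these neighbours included 1. In OPC-like cells the astrocyte markers summed to 1250 CPM, and the richest cell held 38 of 210 Gfap UMIs. Each of the earlier steps in the order exceeded counting error, with astrocyte-like over ependymal-like cells at 3.39-fold (3.20 to 3.60). In the uninjured library, astrocyte-like cells had 64.7 CPM (952 UMIs, 60.7 to 69.0). The other classes together gave 1 UMI, in a fibroblast-like cell. Injured astrocyte-like cells thus had 41.3 times the uninjured level (38.5 to 44.2), a log2 ratio of 5.35 with 1 CPM added to both sides. All log2 ratios here carry this 1 CPM and so understate the difference of genes at low levels, whereas folds and their intervals do not. In male-scored cells it was 5.42. In ependymal-like cells Gfap went from 0 of 158504 gene UMIs uninjured to 1335 UMIs injured, of which 1 cell held 303. The fold was 41.6 with the uninjured level set at 3 counts, and the exact interval of the ratio began at 33.8. The 12 astrocyte markers summed to 1613 CPM in injured and 2296 CPM in uninjured ependymal-like cells, and their part in the Gfap counts was not tested. In microglia-like and endothelial-like cells the injured level was below what 3 counts stood for in the uninjured cells, 25.5 and 28.3 CPM, so no fold is given.

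**Figure D1:**
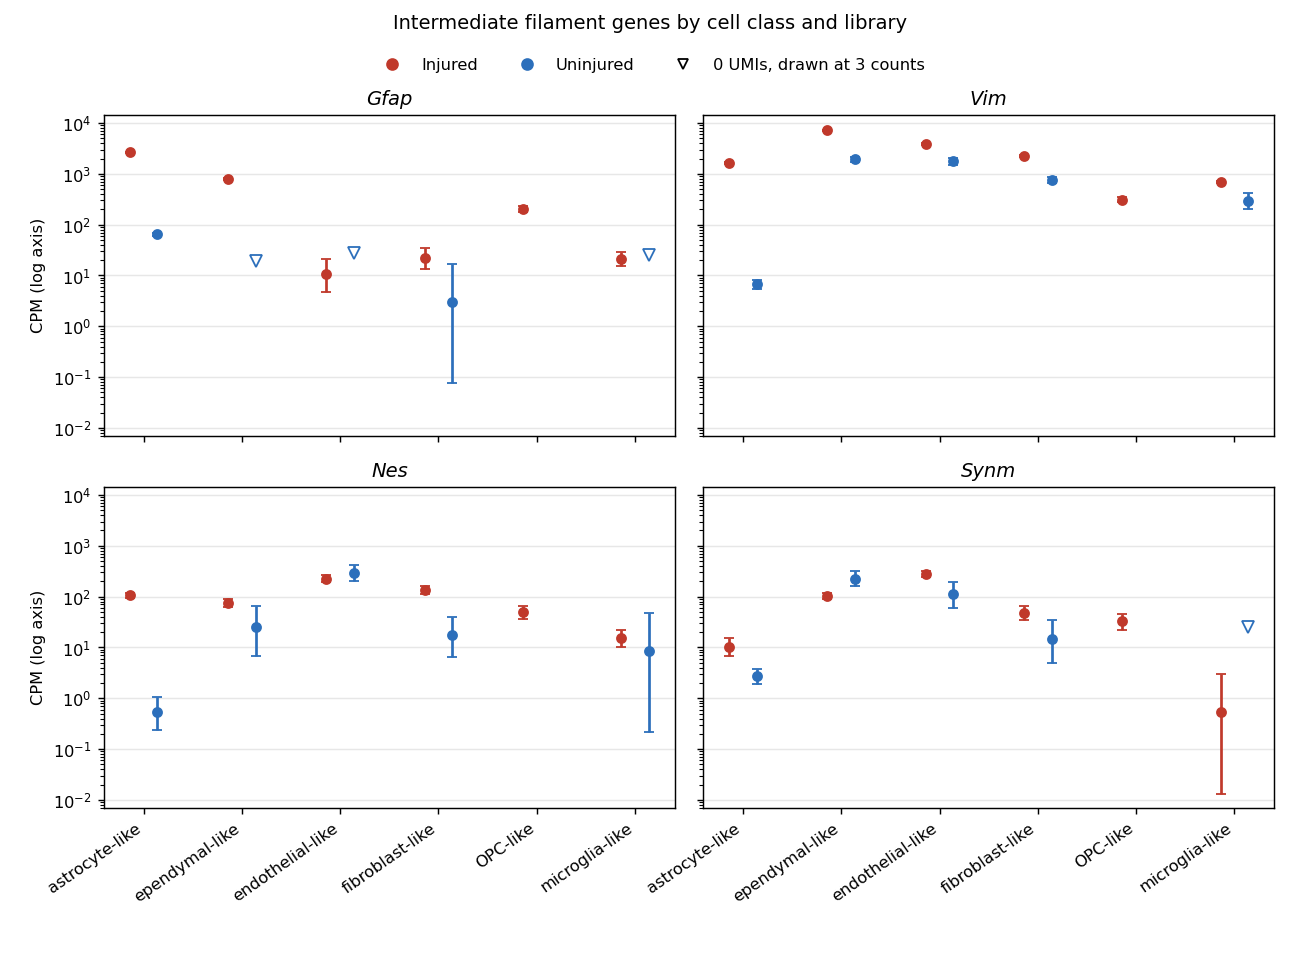
Level of each gene in CPM (log axis) by cell class in the injured (red) and uninjured (blue) library, with exact 95% Poisson intervals; open triangles mark 0 UMIs, drawn at the level of 3 counts, and uninjured OPC-like cells are left out. Gfap separates injured astrocyte-like cells (2671 CPM) from the rest, Vim is highest in ependymal-like cells (7147 CPM injured), and Nes and Synm are highest in endothelial-like cells of the injured library.

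Vim had a different order. In the injured library it was highest in ependymal-like cells at 7147 CPM (7020 to 7275), then endothelial-like cells at 3843, fibroblast-like cells at 2279, astrocyte-like cells at 1638 (1587 to 1691), microglia-like cells at 691 and OPC-like cells at 309 CPM. Every step of this order exceeded counting error. Astrocyte-like cells therefore held a middle place after injury, 4.36-fold (4.21 to 4.53) below ependymal-like cells. In the uninjured library they were last of the 5 classes at 6.66 CPM (98 UMIs, 5.41 to 8.12), against 1931 CPM in ependymal-like, 1755 in endothelial-like, 755 in fibroblast-like and 298 in microglia-like cells. Uninjured ependymal-like and endothelial-like cells did not differ beyond counting error, at a ratio of 1.10 (0.914 to 1.33). The injured library was higher in all 5 classes, but by very unequal amounts. The difference was 246-fold (201 to 304) in astrocyte-like cells, and 3.70-fold (3.30 to 4.16) in ependymal-like, 3.02-fold (2.65 to 3.46) in fibroblast-like, 2.32-fold (1.66 to 3.34) in microglia-like and 2.19-fold (1.89 to 2.55) in endothelial-like cells. Astrocyte-like cells of the injured library also had higher summed markers of ependymal-like (154 against 46.5 CPM) and endothelial-like cells (26.4 against 5.23 CPM), whose part in the Vim level was not tested. Microglia-like cells had 585 CPM of summed myeloid markers injured and 34.0 CPM uninjured. Endothelial-like cells had 38.9 CPM of mural markers injured and 924 CPM uninjured, and 6163 and 2434 CPM of erythroid markers. In fibroblast-like cells the fibroblast markers summed to 14994 CPM injured and 29637 CPM uninjured, and the mural markers to 2735 and 1927 CPM. The part of these markers in the Vim ratios was not tested. In uninjured astrocyte-like cells 1 cell held 27 of the 98 UMIs. The microglia-like value rested on 1 uninjured cell that held 33 of the 35 UMIs. Without the richest cell of each group its log2 ratio was 4.99 in place of 1.21. In male-scored cells the Vim log2 ratio was 7.31 in astrocyte-like cells, against 7.74 in all cells, and 2.20 in ependymal-like cells, against 1.89.

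Nes was at a low level compared with its own peak in endothelial-like cells, where both libraries had it, with 225.5 CPM injured (193 to 262) and 292 CPM uninjured (199 to 415). That ratio of 0.771 (0.523 to 1.17) did not exceed counting error, and the mural markers that were lower in the injured cells of this class (38.9 against 924 CPM) were not tested for their part in it. In astrocyte-like cells Nes had 245 UMIs injured and 8 uninjured, which was 106 CPM (93.1 to 120) and 0.544 CPM (0.235 to 1.07). This was 195-fold (97.3 to 456). Because the uninjured level was below the 1 CPM added, the log2 ratio was smaller than this fold, at 6.11, and it was 5.90 in male-scored cells. The injured order ran from endothelial-like cells over fibroblast-like (137 CPM), astrocyte-like (106 CPM), ependymal-like (74.9 CPM) and OPC-like (48.8 CPM) to microglia-like cells (15.3 CPM), and each step exceeded counting error. The step from fibroblast-like to astrocyte-like cells was only 1.29-fold (1.02 to 1.62), and 37 of the 111 fibroblast-like UMIs came from 1 cell. The interval does not cover such spread between cells, so the order of these 2 classes is not firm. The injured fibroblast-like level was 7.65-fold (3.40 to 21.3) the uninjured one. The part of the differences in fibroblast and mural markers, given for Vim, was not tested here either. In ependymal-like cells the ratio was 2.97 (1.13 to 11.1) on 4 uninjured UMIs. In the uninjured library no class below endothelial-like cells had more than 8 UMIs and its neighbours in the order did not differ beyond counting error. Astrocyte-like cells were nevertheless below ependymal-like cells, at a ratio of 0.0215 (0.00577 to 0.0978).

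Synm was low in astrocyte-like cells of both libraries, where Gfap was highest. Injured endothelial-like cells had 285 CPM (248 to 326), ependymal-like cells 103 CPM (88.5 to 120), fibroblast-like cells 48.1 CPM, OPC-like cells 32.5 CPM, astrocyte-like cells 10.4 CPM (24 UMIs, 6.65 to 15.4) and microglia-like cells 0.529 CPM (1 UMI). Fibroblast-like and OPC-like cells did not differ beyond counting error, at 1.48-fold (0.909 to 2.41), and the other steps did. In the uninjured library ependymal-like cells were first with 227 CPM (159 to 314), followed by endothelial-like cells with 113 CPM (58.5 to 198), fibroblast-like cells with 14.9 CPM and astrocyte-like cells with 2.72 CPM (40 UMIs, 1.94 to 3.70). Synm was lower in injured than uninjured ependymal-like cells, at 0.455 of the uninjured level (0.316 to 0.670). The summed ependymal markers of this class were lower too, at 5517 against 9710 CPM, and their part in the Synm ratio was not tested. Synm was higher in injured endothelial-like cells, 2.51-fold (1.41 to 4.94), beside the differences in mural and erythroid markers given for Vim, whose part in the Synm ratio was not tested either. It was also higher in injured astrocyte-like cells, 3.82-fold (2.20 to 6.49). In fibroblast-like cells the ratio was 3.22 (1.27 to 10.5), but with the cells of 50000 or more gene UMIs kept it was a log2 ratio of −0.013 in place of 1.63. The part of the fibroblast and mural markers in this ratio was not tested. In male-scored cells the log2 ratio was 1.66 in astrocyte-like and −0.96 in ependymal-like cells.

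These ratios were set beside those of all genes of the same class at 50 CPM or more in either library. In astrocyte-like cells 3 of 3 such genes (Gfap, Vim and Nes, with Synm below 50 CPM) were higher by a log2 ratio of at least 1, against 13.7% of 4135 genes, while 8.59% were lower. In ependymal-like cells 3 of 4 were higher (Gfap, Vim and Nes), against 6.6% of 4911 genes, and Synm was lower, as were 11.4%. In endothelial-like cells Vim and Synm, 2 of 3, were higher, against 7.12% of 4397 genes, with 11.4% lower. In fibroblast-like cells Vim and Nes, 2 of 2, were higher, against 12.4% of 4469 genes, with 11.3% lower. In microglia-like cells Vim alone was counted and was higher, against 11.1% of 4237 genes, with 23.6% lower. Some of these counts depended on the scaling or the cells. With the mean over cells in place of summed UMIs, Vim in endothelial-like cells had a log2 ratio of 0.94 and Nes in ependymal-like cells 0.65, so that each count lost 1 gene. In male-scored cells Synm in ependymal-like cells was at −0.96, inside the fold. The median log2 ratio of all these genes lay between −0.30 in microglia-like and 0.05 in fibroblast-like cells, so the scale itself was close to level.

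To compare shares of cells at 1 depth, each cell was thinned to 1000 gene UMIs by a single random draw, leaving out shallower cells. Gfap was then found in 304 of 410 injured astrocyte-like cells (74.1%, 69.6 to 78.3%) and in 210 of 3884 uninjured ones (5.41%, 4.72 to 6.17%). Without thinning the shares were 84.9% and 16.8%, at median depths of 3488 and 3342 gene UMIs. Microglia-like cells, which should lack Gfap, were taken as a reference. Of these, 2 of 121 injured cells had it after thinning (1.65%) and 26 of 129 before it (20.2%, at a median of 13386 gene UMIs). The source of these counts was not tested. The uninjured library gave 0 of 28 microglia-like cells after thinning, a count whose exact interval reaches 12.3%, so this reference was a loose bound there. The median depth of these cells was 3064 gene UMIs. The fibroblast-like cells of the uninjured library gave 0 of 91, which allows up to 3.97%. Gfap was also found in 38 of 135 injured ependymal-like cells (28.1%, 20.8 to 36.5%). The shares of endothelial-like cells (1.54%) and of fibroblast-like cells (3.64%) lay within the interval of the microglia-like share (0.201 to 5.84%) and could not be told apart from it. The share of OPC-like cells after thinning, 2 of 45 (4.44%), lay there too, although their level in CPM was above that of microglia-like cells and 48.9% had a Gfap UMI at their full depth, a median of 21658 gene UMIs.

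After thinning, 43.2% of injured astrocyte-like cells had Vim (38.3 to 48.1%), and 0.386% of uninjured ones did (0.216 to 0.636%). Among injured ependymal-like and endothelial-like cells it was nearly universal, at 96.3% and 96.9%, and in uninjured ones it was found in 67.7% and 73.1%. Nes was found in 32 of 410 injured astrocyte-like cells (7.80%) and 1 of 3884 uninjured ones, and in 2 of 121 injured microglia-like cells. Its share was highest in injured endothelial-like cells, at 18.5% (9.92 to 30.0%). Of astrocyte-like cells, 4 of 410 had Synm after injury (0.976%) and 17 of 3884 without it (0.438%), with intervals of 0.266 to 2.48% and 0.255 to 0.700%. The intervals of these shares overlapped, whereas 13.3% of injured ependymal-like and 29.2% of injured endothelial-like cells had it. No injured microglia-like cell of 121 had a Synm UMI after thinning (up to 3.00% is allowed by this count).

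**Figure D2:**
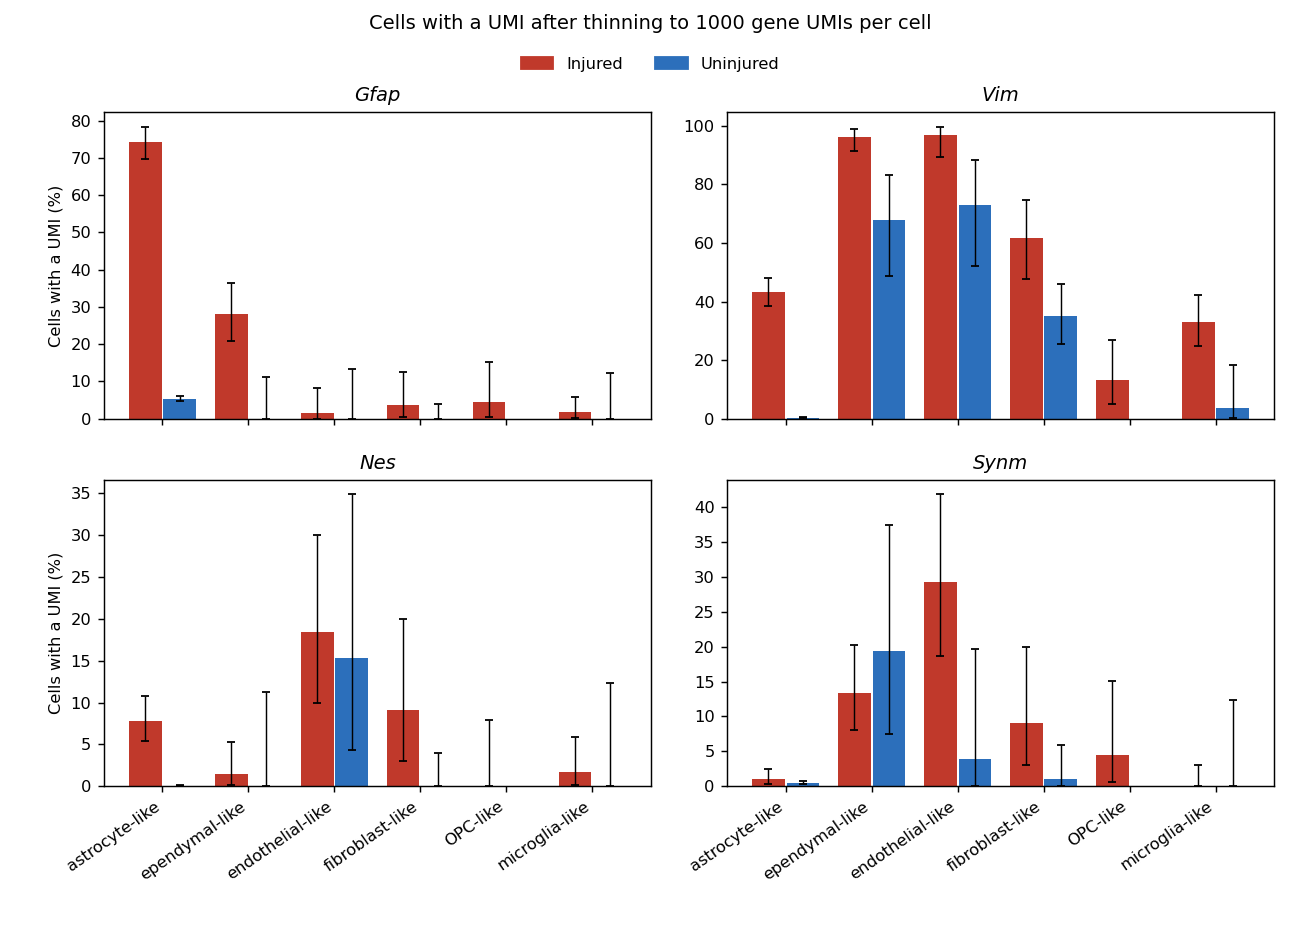
Share of cells with at least 1 UMI of each gene after thinning to 1000 gene UMIs per cell, by class, in the injured (red) and uninjured (blue) library, with exact 95% binomial intervals; each panel has its own scale from 0. Gfap is found in 74.1% of astrocyte-like cells with injury and in 5.41% without, while Vim is found in most ependymal-like and endothelial-like cells of both libraries.

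Co-detection was then followed cell by cell, after thinning and within each class. Of 410 injured astrocyte-like cells, 150 had Gfap alone of the 4 genes (36.6%, 31.9 to 41.5%), 127 had Gfap and Vim without the others (31.0%, 26.5 to 35.7%), 23 had Gfap, Vim and Nes (5.61%) and 1 had all 4. A further 23 had Vim alone (5.61%) and 77 had none (18.8%). The typical injured astrocyte-like cell was thus Gfap-positive with or without Vim, and 26 of the 32 cells with Nes also had Vim. Vim was found in 152 of 304 cells with Gfap (50%, 44.2 to 55.8%) and in 25 of 106 cells without it (23.6%, 15.9 to 32.8%). Nes was found in 26 of 177 cells with Vim (14.7%, 9.83 to 20.8%) and in 6 of 233 cells without it (2.58%, 0.951 to 5.52%). By contrast, Nes was about as frequent with Gfap (8.55%, 5.66 to 12.3%) as without it (5.66%, 2.11 to 11.9%), with wide intervals. The observed share of cells with both Gfap and Vim was 37.1%, beside 32.0% for the product of the single shares, and for Vim and Nes it was 6.34% beside 3.37%. These shares pool mainly clusters 3 and 4, described further on. Without thinning, Gfap was in 91.8% and 64.5% of their injured cells and Vim in 80.1% and 29.1%. The part of this mixture in the joint shares was not tested.

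Uninjured astrocyte-like cells mostly had none of the 4 genes at this depth (3646 of 3884, 93.9%). Of the rest, 206 had Gfap alone, 16 Synm alone, 11 Vim alone and 1 Nes alone. Gfap and Vim were found in the same cell 4 times, of which 1 also had Synm. At full depth the number with Gfap and Vim was 18 of 3956 cells, of which 1 also had Nes and 2 Synm, and no cell had all 4.

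In ependymal-like and endothelial-like cells Vim was the base of nearly every combination. Injured ependymal-like cells had Vim alone in 77 of 135 (57.0%), Gfap and Vim in 34 (25.2%), Vim and Synm in 13 (9.63%), and Gfap, Vim and Synm in 4 cells. All 38 ependymal-like cells with Gfap had Vim, but so did 92 of the 97 without it (94.8%, 88.4 to 98.3%). The joint share of 28.1% lay beside a product of the single shares of 27.1%, so no link of the 2 genes is read from it. At full depth, where these cells had a median of 10862 gene UMIs, 26 of 135 (19.3%) had all 4 genes, against 5 of 443 (1.13%) injured astrocyte-like cells at a median of 3488. Injured endothelial-like cells had Vim alone in 35 of 65 (53.8%), Vim and Synm in 15 (23.1%), Vim and Nes in 8 (12.3%), and all of Vim, Nes and Synm in 4. At full depth that triple was the most frequent combination in injured endothelial-like cells, in 32 of 68 (47.1%), while of 26 uninjured ones 9 had Vim alone, 8 had the triple and 8 had Vim and Nes. Injured fibroblast-like cells had Vim alone in 28 of 55 and none of the genes in 15, with Nes alone in 3, Synm alone in 2 and Gfap alone in 1. Injured OPC-like cells had Vim alone in 5 of 45, Gfap alone in 2, Synm alone in 1 and none in 36. Injured microglia-like cells had Vim alone in 40 of 121 and none in 78.

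**Figure D3:**
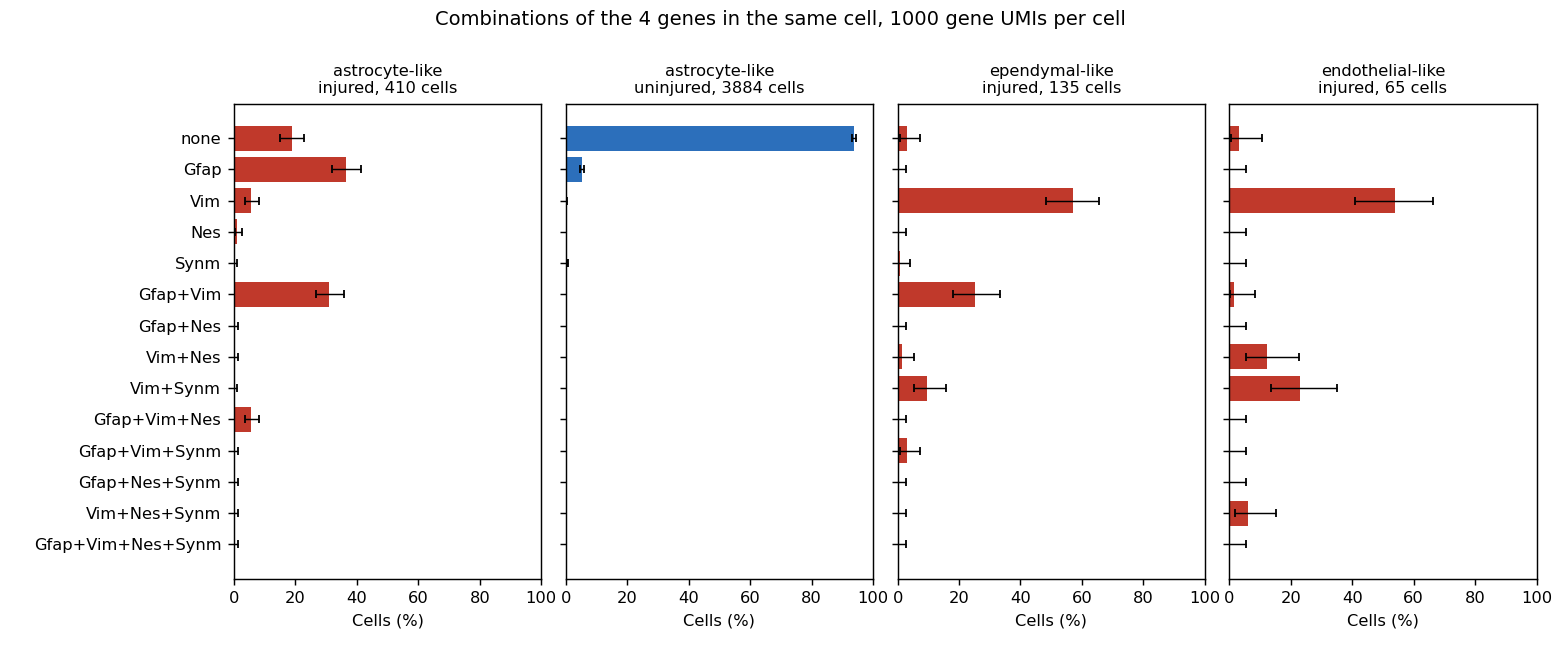
Share of cells with each combination of the 4 genes after thinning to 1000 gene UMIs per cell, in injured and uninjured astrocyte-like cells and in injured ependymal-like and endothelial-like cells, with exact 95% binomial intervals. Gfap alone (36.6%) and Gfap with Vim (31.0%) lead in injured astrocyte-like cells, and Vim alone leads in ependymal-like (57.0%) and endothelial-like (53.8%) cells.

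Within injured astrocyte-like cells the genes were spread unequally. The 10% of cells richest in a gene (45 cells) held 41.5% of the Gfap, 65.4% of the Vim and 86.9% of the Nes UMIs. The median cell had 20.02 Gfap and 4.81 Vim UMIs per 10000 gene UMIs, and the cell at the 90th percentile had 65.2 and 40.8. A single injured cell held 467 of the 3788 Vim UMIs (12.3%), and a single uninjured astrocyte-like cell 27 of the 98 (27.6%). Without the richest cell of each group the Vim log2 ratio was 7.97. In uninjured astrocyte-like cells Gfap was 1 UMI in 516 of the 665 cells that had any, and 11 cells had 5 or more. In injured ependymal-like cells Gfap was concentrated, with 14 of 135 cells holding 71.2% of its UMIs and 1 cell holding 303 of 1335, whereas the same number of cells held 34.98% of the Vim UMIs.

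Injured astrocyte-like cells lay mostly in cluster 3 (306 cells, 69.1%) and cluster 4 (110 cells, 24.8%). In cluster 3 Gfap had 2947 CPM (2871 to 3024), Vim 1908 (1847 to 1970) and Nes 121 (106 to 137). In cluster 4 the levels were 1136 (1012 to 1270), 235 (180 to 300) and 37.2 (17.9 to 68.5) CPM. Vim and Gfap were among the leading genes of cluster 3 against the other astrocyte-like clusters. Cluster 3 held 306 injured and 35 uninjured cells and the others mostly uninjured ones, so this ranking largely repeats the difference between the libraries. The members took no part in clustering, but genes that may move with them did. Gfap, Vim and Nes were lower in cluster 4 than in cluster 3, and the ratio of Vim to Gfap UMIs was lower too. Cluster 4 was shallow, with a median of 1884 gene UMIs against 4604, and mitochondrial transcripts made up 40.6% of its UMIs against 5.93%. The part of cell quality in these levels was not tested. Synm did not differ beyond counting error, at 10.3 (6.27 to 15.9) and 7.45 (0.902 to 26.9) CPM.

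Among uninjured astrocyte-like cells, 35 (0.885%) fell into cluster 3 with the injured ones. They had 711 CPM of Gfap (578 to 866), 352 of Vim (260.5 to 465.5) and 21.6 of Nes (3 UMIs). Gfap was found in 60% and Vim in 22.9% of them, so the Vim level rested on few cells. The remaining uninjured astrocyte-like cells had 58.5 CPM of Gfap and 3.36 CPM of Vim. These 35 cells held 10.4% of the Gfap and 49 of the 98 Vim UMIs (50%) of uninjured astrocyte-like cells. Without them the injured-over-uninjured log2 ratio was 8.55 for Vim and 5.49 for Gfap. In the 5 other clusters Gfap lay between 38.1 and 88.6 CPM and Vim between 1.91 and 12.4 CPM. Both were highest in cluster 8, whose leading genes included the neuron and myelin genes Nefl, Snap25 and Mal, and whose median depth of 5112 gene UMIs was the highest of the 5. Nes had 0 to 4 UMIs in each of these clusters.

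**Figure D4:**
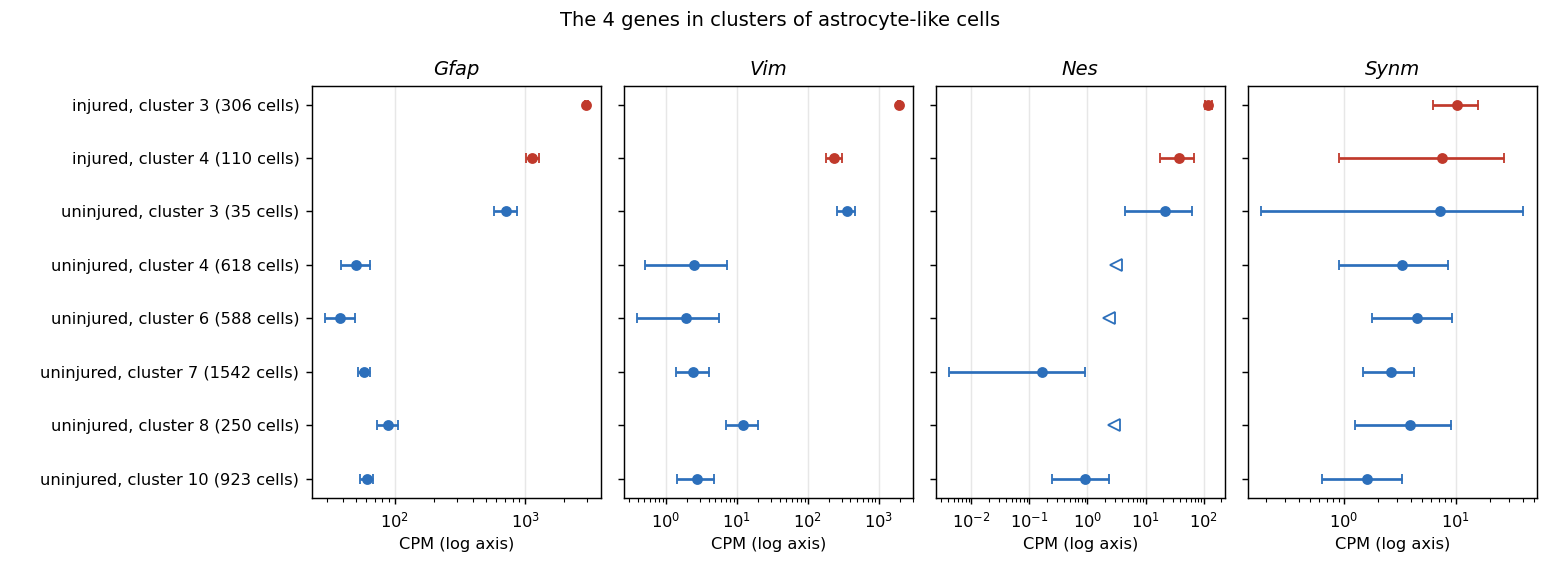
Level of each gene in CPM (log axis) in clusters of astrocyte-like cells with at least 20 cells in a library, injured in red and uninjured in blue, with exact 95% Poisson intervals; open triangles mark 0 UMIs, drawn at the upper end of the interval. The 35 uninjured cells of cluster 3 had 711 CPM of Gfap, between the injured cells (1136 and 2947 CPM) and the other uninjured clusters (38.1 to 88.6 CPM).

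Related genes were described in astrocyte-like cells by counting those past a log2 ratio of 1, among listed genes with 20 CPM or more in either library. At this floor 11.4% of 7684 genes were higher and 7.22% lower in the injured library, with a median log2 ratio of −0.03. Of 14 other intermediate filament genes 4 were counted, of which 1 was higher and 3 were lower. The nuclear lamin Lmna was higher, at 61.0 and 14.6 CPM (log2 ratio 1.99). The neurofilament genes Nefl, Nefm and Nefh were lower, at 17.3 against 65.7, 12.1 against 53.8 and 4.33 against 29.5 CPM, with a list median of −1.96. Neuron markers summed to 215 CPM in injured and 197 CPM in uninjured astrocyte-like cells. However, Nefl and the neuron gene Snap25 were among the leading genes of cluster 8, which held 1 injured and 250 uninjured cells. The part of such cells in the neurofilament ratios was not tested. The keratin genes Krt8, Krt18 and Krt19 had 1 UMI together, and desmin (Des), a partner of synemin in muscle, had 3 and 6 UMIs.

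Of 16 linkers, modifiers and chaperones of filaments 10 were counted, with 3 higher, none lower and a median of 0.46. The small heat shock proteins Hspb1 and Cryab, which bind filaments under stress, had 926 against 5.71 CPM (log2 ratio 7.11) and 982 against 153 CPM (2.68). Plectin (Plec), which links filaments to each other and to adhesion sites, had 94.3 against 24.7 CPM (1.89). The remaining linkers and kinases lay within the fold, among them Macf1 at −0.79, Dst at 0.49 and the citrullinating enzyme Padi2 at −0.08. Without the added 1 CPM, Hspb1 was 162-fold higher (130 to 204), beside 195-fold for Nes and 246-fold for Vim.

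Of 15 transcription factors known to act on Gfap, Vim or Nes 14 were counted, with 3 higher and 1 lower and a median of −0.40. Stat3, an activator of Gfap, had 111 against 39.1 CPM (1.48), and the AP-1 genes Fos and Jun had 64.4 against 16.5 (1.91) and 103 against 49.5 CPM (1.04). Hes1, a Notch target, was lower at 13.4 against 38.9 CPM (−1.47). The glial factors Sox9 (0.33), Sox2 (−0.43), Nfia (−0.50), Nfib (−0.63) and Nfix (−0.46) lay within the fold. Of 24 other cytoskeleton genes 22 were counted, with 18 higher, none lower and a median of 1.92. They were led by the membrane linker moesin (Msn) with 158 against 5.44 CPM (4.62), followed by the tubulin gene Tubb6 (3.85), the actin crosslinker Flna (3.43) and Tmsb10 (3.28). The neuronal tubulin binder Map2 had the lowest ratio of these, at −0.78.

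**Figure D5:**
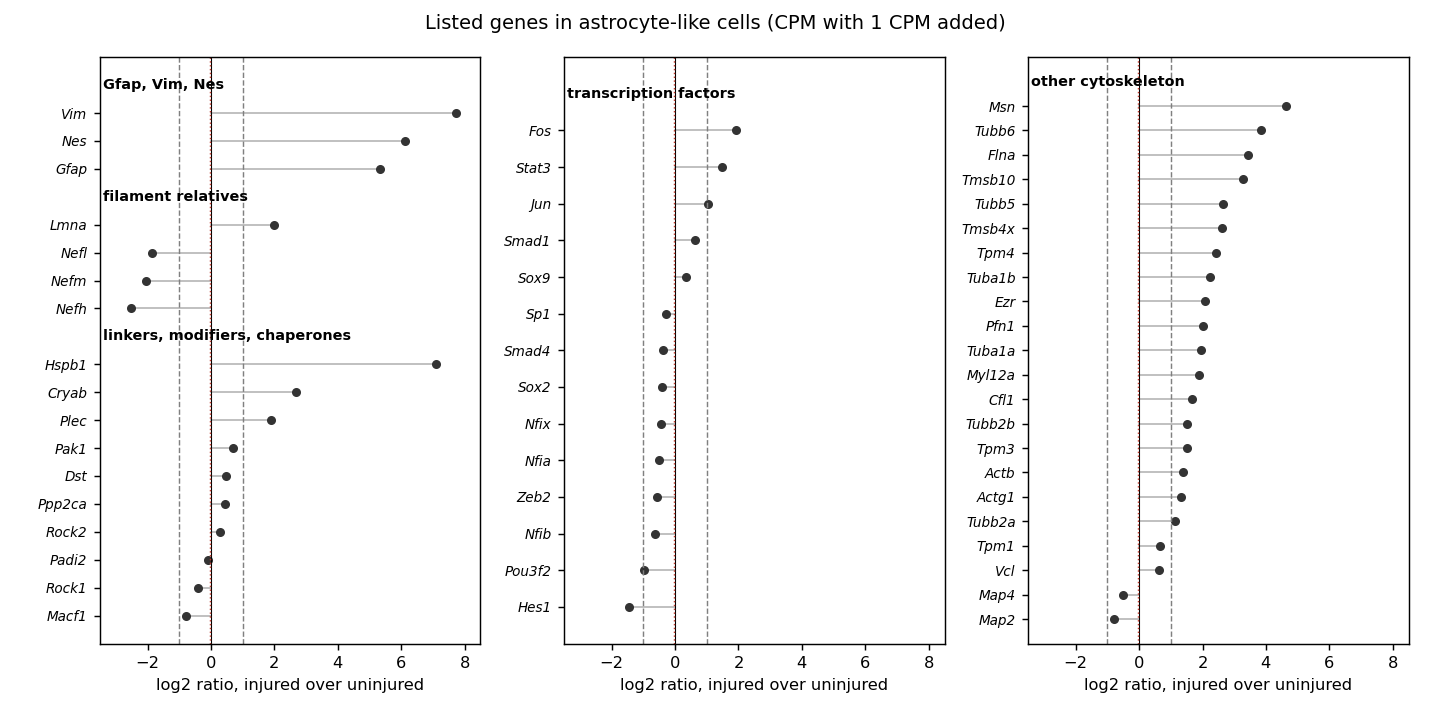
Log2 ratio of injured over uninjured CPM in astrocyte-like cells, with 1 CPM added to both, for listed genes at 20 CPM or more in either library. Dashed lines mark ratios of 1 and −1, and the red dotted line the median of 7684 genes (−0.03). Vim (7.74), Hspb1 (7.11), Nes (6.11) and Gfap (5.35) lie beyond the other listed genes.

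The genes most like each member were found by Pearson's r of log2(CPM + 10) over the 11 groups of class and library, among 8711 genes. The groups share 2 libraries and differ in depth, so these values are descriptions only. Gfap was most like Dbndd2 (0.928), Neto2, Ndufc1, Enox1 and Ghitm (0.845). Vim was most like Anxa2 (0.916), which encodes an annexin of membrane and actin, followed by Cyb5r3, Actn1, Tbca and Srp9 (0.882). Nes was most like Capns1 (0.898), Rexo2, Tmem98, Hspb1 and Vcp (0.888), and Synm was most like Csrp2 (0.960), Bok, Esyt2, Sptan1 and Cobll1 (0.928). Among the members themselves Vim, Nes and Synm had r of 0.670 to 0.738 with each other, while Gfap had 0.0992 with Vim, 0.137 with Nes and −0.142 with Synm. Gfap was thus the least like the other members in its distribution over classes. The reporter tdTomato-WPRE had r of 0.264 to 0.336 with the 4 genes.

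The levels were also compared by cell sex within the injured library, where both were present. In 79 female-scored and 132 male-scored astrocyte-like cells Gfap had 2331 and 2680 CPM, a ratio with an interval of 0.817 to 0.926, and Vim had 1667 and 1350 CPM, a ratio of 1.23 (1.14 to 1.34). In ependymal-like cells Gfap had 519 CPM in female-scored and 1022 CPM in male-scored cells, a ratio of 0.508 (0.448 to 0.574). A single injured ependymal-like cell held 303 of the 1335 Gfap UMIs, and the interval does not cover such spread between cells. The direction was opposite in OPC-like cells, with 313 and 105 CPM, a ratio of 2.99 (2.18 to 4.15). It was opposite in microglia-like cells too, at 2.14 (1.06 to 4.53). In endothelial-like and fibroblast-like cells the intervals of the Gfap ratio included 1. Single rich cells weighed in other classes too. The OPC-like values came from 20 female-scored and 23 male-scored cells, and 1 OPC-like cell held 38 of 210 Gfap UMIs. In microglia-like cells 1 cell held 11 of 40 Gfap UMIs, and in astrocyte-like cells 1 held 467 of 3788 Vim UMIs. The intervals do not cover this spread either. The cells of a sex may come from as few as 1 animal, so sex and animal cannot be told apart. Among the enhancer barcodes, M8 had 23.2 UMIs per 1000000 gene UMIs in the 376 injured astrocyte-like cells with a Gfap UMI and 25.5 in the 67 without (4 UMIs), with the interval of their ratio from 0.334 to 3.47. The control barcode A5 had 40.8 and 38.2, and M5 had 91.9 and 102, so for these barcodes no difference by Gfap was detectable at this depth.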

How the data were processed

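Single-cell gene expression was measured in 1 injured and 1 uninjured library of sorted cells. The authors deposited raw UMI counts per gene and cell, in matrices whose headers name Cell Ranger 7.1.0, whereas the processing notes name 8.0.1 and mm10. Enhancer barcodes were counted in the same files. No normalization was applied by the authors, and no column of another sample was present. Which of the versions made these files is not stated.

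The 4 genes and the gene lists were chosen with earlier results of these data known. Barcodes above 500 and below 50000 gene UMIs entered (40 injured cells removed). Counts were scaled to 10000 per cell, log transformed and clustered on 2000 variable genes, 15 components and 15 neighbours, at Leiden resolution 0.5 (scanpy 1.11.5, igraph 0.11.9, Python 3.11.15). The 4 genes, other intermediate filament genes, tdTomato-WPRE and enhancer barcodes were left out of clustering. A cluster took the class with the highest mean log marker level (above 0.2), with at least 3 markers in at least 10% of cells and no other class with more markers among its 10 leading genes. This rule was set after cluster output was seen. Classes with fewer than 20 cells in a library were not compared. No doublets were removed: Scrublet called 2 of 5038 cells (0.0397%) and so did not work, and the 5% of cells with the highest scores were left out as an alternative.

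CPM are UMIs summed over the cells of a class per 1000000 gene UMIs, with exact Poisson intervals. Ratios have exact conditional binomial intervals and shares Clopper-Pearson intervals, all at 95% (scipy 1.17.1). UMIs were thinned without replacement in 1 draw. For a fold or the floor of a level, a group at 0 was set at 3 counts over the group. This is below the upper end of the exact interval. The ratio and its interval were tested on simulated Poisson totals per gene, the model behind the interval. The simulation held no spread between cells, so it cannot say how the intervals fare with such spread. The genes named are the 4 members, the listed genes, tdTomato-WPRE and, for each member, the 5 genes with the highest r, as above. Genes that lead clusters and class markers were named in addition. Promoter windows are from RefSeq, with all 4 symbols matched. With 1 library per group no test between groups was possible. Alternatives changed the cell filters, clustering, choice and sex of cells, doublets, single rich cells, pseudocount, scaling and thinning.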

Additional observations from a re-analysis of the deposited data

Results flagged for a closer look

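The injured-over-uninjured difference of Synm had opposite directions in different cell classes. Its log2 ratio was −1.13 in ependymal-like cells, where 175 injured and 36 uninjured UMIs were counted, and 1.61 in astrocyte-like cells, 1.63 in fibroblast-like cells and 1.32 in endothelial-like cells. The difference between these classes was not tested, since each condition had 1 library. Summed ependymal markers were 5517 CPM in injured and 9710 CPM in uninjured ependymal-like cells, and their part in the Synm ratio was not tested. The fibroblast-like value was near 0 (−0.013) when cells of 50000 or more gene UMIs were kept.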

How the results depend on the processing

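Over 120 results, 1176 alternative values were computed, of which 1008 moved from the reported value by less than the width of its counting interval on that side, 167 moved by more and 1 changed sign. For log2 ratios this width was taken from the interval of the fold without added CPM, which for Nes in astrocyte-like cells lies above the log2 ratio itself, and the share of all genes past the fold, which has no interval, was compared within 1.5 times. That 1 was the Synm log2 ratio in fibroblast-like cells, −0.013 without the upper limit on gene UMIs. In astrocyte-like cells no log2 ratio of the 4 genes changed sign under any alternative, with ranges of 5.17 to 5.49 for Gfap, 6.63 to 8.55 for Vim, 3.46 to 6.60 for Nes and 0.68 to 2.66 for Synm. A pseudocount of 10 CPM gave 5.17 for Gfap, 6.63 for Vim, 3.46 for Nes and 0.68 for Synm. The Vim log2 ratio was 7.31 in male-scored cells, 7.43 without the highest 5% of Scrublet scores and 8.55 without the uninjured cells of cluster 3, an alternative chosen after seeing the data that gave 5.49 for Gfap. Cells chosen by an Aldh1l1 UMI (261 injured and 1835 uninjured) gave 2.66 for Synm and a Gfap share of 81.2% in injured cells. The Gfap share of injured astrocyte-like cells was 87.4% at 2000 gene UMIs, 84.9% without thinning and 78.6% with at least 2 UMIs, and that of uninjured cells was 10.9%, 16.8% and 3.77%. Gfap and Vim were found in the same injured cell in 50.6%, 58.2% and 45.8%. With the mean over cells the Vim ratio of endothelial-like cells (0.94) and the Nes ratio of ependymal-like cells (0.65) fell short of a log2 ratio of 1. Class levels at resolution 1.0, at 1000 gene UMIs or more and with filament genes kept in clustering stayed within their intervals. No paired analysis was possible because there was a single gene expression library in each condition. Depth limits the uninjured classes other than astrocyte-like cells, of 26 to 98 cells, where 3 UMIs stood for 8.95 to 28.3 CPM, and another random draw of the thinning moved 5 values outside their intervals.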
